A study of Mus musculus with 15 samples.

Results

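The circadian clock genes *Per1*, *Per2*, *Per3*, *Cry1*, *Cry2*, *Arntl*, *Clock*, *Nr1d1*, *Nr1d2* and *Dbp* were followed through the first 48 h of culture of mouse dental mesenchymal cells (mDMCs). They were chosen by name, and each has 1 Ensembl transcript among the 12089 of the deposited table. All 10 passed the filter on low values, although *Nr1d1* reached 1 ppm of the library total in 7 of 14 libraries of mDMCs and *Dbp* in 11.

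mDMCs of ICR mice were obtained from the mandibular first molar germs of embryos at E14.5, treated with dispase to separate the mesenchyme from the epithelium and then with trypsin to release single cells. Freshly isolated cells (0 h, D0) gave 3 libraries, and cells cultured in DMEM with fetal bovine serum (FBS) gave 2 libraries at 12 h (D0.5) and 3 each at 24 h (D1), 36 h (D1.5) and 48 h (D2). Dental mesenchymal tissue gave 1 library, with no replicate. All cultured libraries had serum, so serum, plating and time in culture cannot be told apart, and the hours count time in culture and not the hour of day. The methods state sequencing in duplicate or triplicate without naming the source of the replicates, and a general remark there on independent experiments is not tied to these libraries, so p-values measure the spread between these libraries, which may be technical. The values are normalised scores that share one distribution over the libraries, with a median of 721. The read depth is unknown, and levels were not compared between genes.

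The 12 markers of dental mesenchyme all had values above 0 in every cultured library, but 7 of them fell and 1 rose by 48 h. By 36 h, 8 fell and 1 rose. Of all transcripts, 34.0% fell and 37.1% rose by 48 h, and 34.0% fell and 36.0% rose by 36 h. The summed score of the 12 markers was 134540 to 157758 at 0 h, 154909 to 233231 after 12 h and 151346 to 182461 after 24 h. It was 141795 to 205386 after 36 h and 135855 to 143155 after 48 h, so the sums did not fall below the range of 0 h. In culture these sums were mostly *Vim* (70528 to 127101) and *Prrx1* (28843 to 70675), beside 619 to 2177 for *Pax9*. They thus say little of the lower markers. *Pax9* and *Lhx6*, transcription factor genes of this mesenchyme, changed by -2.37 and -1.60 on the log2 scale by 48 h (adjusted p = 8.64e-07 and 4.63e-08). The 7 endothelial markers summed to 8663 to 10197 at 0 h and to 396 to 851 in culture, where *Cldn5* was listed at 0 in 10 of 11 libraries. For 6 of the 8 blood and macrophage markers, which have rows, the sums were 31044 to 45393 at 0 h and 440 to 1280 in culture. Much of the sum at 0 h was *Hba-a1* (16489 to 25013), a haemoglobin gene. Of the 6 markers, 5 were lower and 1 higher at 12 h and again at 36 h. Markers of epithelium, of which 9 of 11 have rows, summed to between 1764 and 18022 at 0 h, so epithelial RNA was present in the fresh cells, and between 95 and 4024 in culture, with 7 of the 9 lower by 36 h and 5 by 48 h. Neural and Schwann markers, with rows for 2 of 6, summed to between 232 and 803 at 0 h and were above that range after 12 h (1134 to 1239) and 24 h (820 to 1763), with 303 to 383 after 36 h and 362 to 1048 after 48 h. Every change from 0 h given below therefore ran beside lower sums of blood and endothelial markers, and by 36 h also beside a fall of most epithelial and mesenchymal markers. At 12 h, 28.3% of all transcripts were lower and 29.9% higher. Beside this, 1 of the 9 epithelial markers was lower, and 7 of the 12 mesenchymal markers were lower and 2 higher. The part of these markers in the changes was not tested. In such bulk libraries, fewer cells of a type and less RNA per cell cannot be told apart.

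The circadian clock is a transcription loop that runs in most cells of the body with a period of about a day. Its activator is a pair of proteins, CLOCK and BMAL1 (the product of *Arntl*), which bind E-box sequences and switch on the *Per* and *Cry* genes, whose products then inhibit the pair. A further loop runs through the nuclear receptors REV-ERBα and REV-ERBβ (*Nr1d1* and *Nr1d2*), which repress *Arntl* at ROR elements, and through PAR bZIP factors such as DBP, which act at D-boxes. Isolated fibroblasts keep such clocks, and a serum pulse is a standard way to set the clocks of a culture to one phase. In a culture so set, *Per1* and *Per2* answer serum as immediate early genes and *Arntl* later peaks about opposite to *Dbp* and *Nr1d1*. Libraries 12 h apart show a rhythm of about a day only as alternation, with levels at 12 and 36 h on one side and those at 24 and 48 h on the other. A rhythm that crosses its mean at the sampled hours cannot be seen.

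From 0 h to 48 h, the activators *Arntl* and *Clock* rose, *Nr1d1* rose from a low level, and *Cry2*, *Dbp*, *Per2* and *Per1* fell. Alternation passed the test for none of the 10 genes, and only *Arntl* and *Dbp* changed in any comparison of 2 neighbouring culture times. Replicate 1 at 24 h and replicate 1 at 48 h both differed over 2-fold from the other libraries of their time in *Per1*, *Per2* and *Nr1d2*, as they did in 0.969% of all transcripts.

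**Figure D1:**
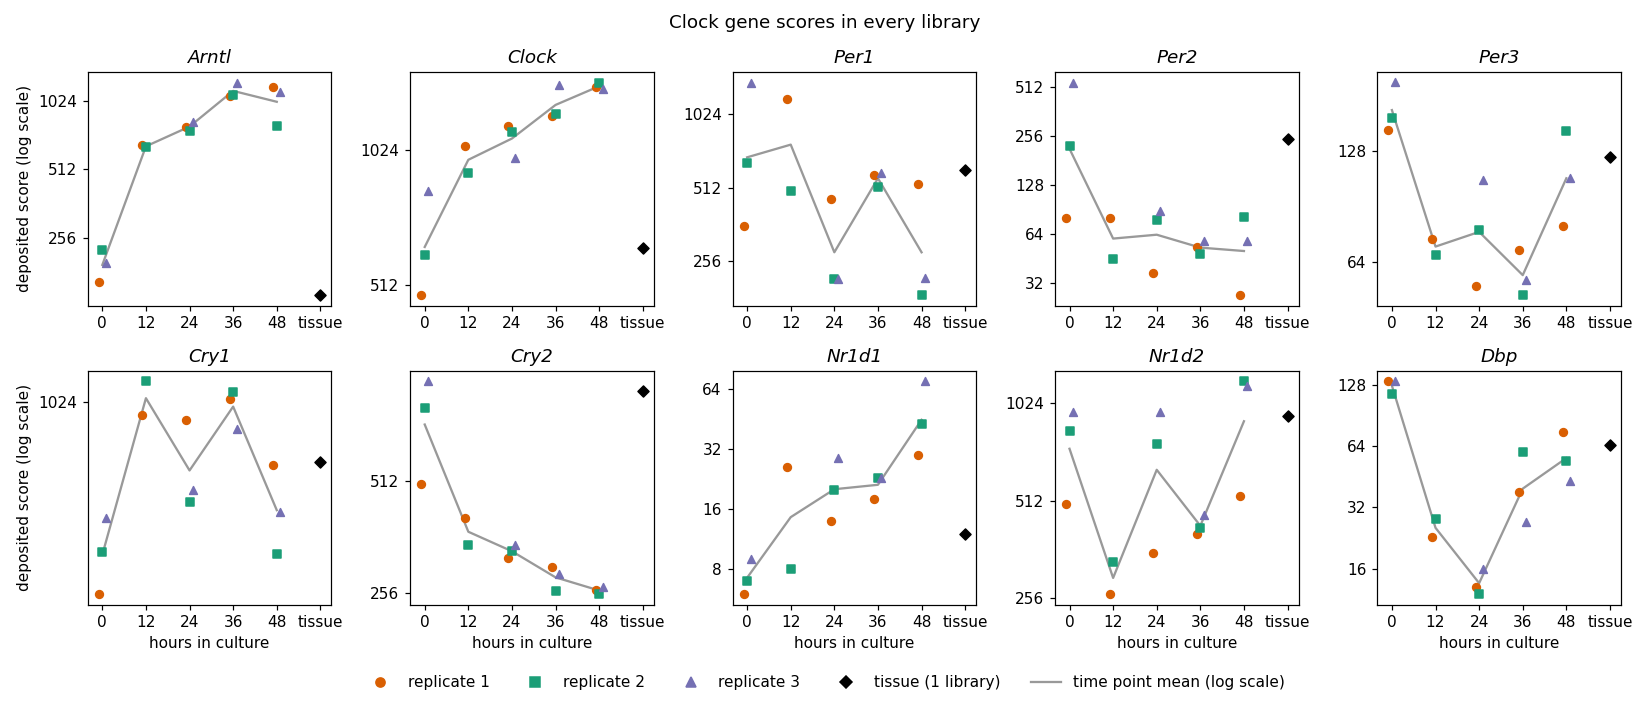
Scores of the 10 clock genes in all 15 libraries (vertical axis, deposited score on a log scale) by hours in culture or tissue (horizontal axis), with a marker for each replicate number, a diamond for the tissue and a line through the means of the log values. Arntl rises from 165 to 226 at 0 h to 1079 to 1231 at 36 h without overlap, and Per1 and Nr1d2 spread widely within 24 h and 48 h.

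At 12 h, 8 of the 10 genes differed from 0 h (adjusted p below 0.05, limma), 3 higher and 5 lower, beside 58.2% of all 12079 transcripts tested (29.9% higher and 28.3% lower). By 24 h the number was 9, with 4 higher and 5 lower, beside 66.9% of all transcripts (35.0% and 31.8%). It was 8 by 36 h, with 4 higher and 4 lower, beside 70.0% (36.0% and 34.0%), and 7 by 48 h, with 3 higher and 4 lower, beside 71.2% (37.1% and 34.0%). With an unadjusted p below 0.05 and a fold above 2 in place of the adjusted p, 7 of the 10 genes were called by 24 h, beside 28.0% of all transcripts, 7 by 36 h, beside 31.1%, and 7 by 48 h, beside 32.1%. The median change of the 10 genes at 48 h was -0.20 on the log2 scale, beside 0.03 over all transcripts. The latter value is kept small by the shared distribution of the scores.

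*Arntl* encodes BMAL1, the partner of CLOCK. Its transcript lies on chromosome 7 (113207465 to 113314126, plus strand, mm10) and has 20 exons. Scores at 0 h were 165, 226 and 200, and those at 12 h were 654 and 639. At 24 h they were 788, 756 and 825, rising to 1079, 1089 and 1231 by 36 h, and the last time had 1178, 790 and 1118. Every cultured library was above every library at 0 h, and every library at 36 h was above every library at 24 h. The log2 change from 0 h was 1.72 ± 0.16 (SE, adjusted p = 2.15e-06) at 12 h and 2.53 ± 0.15 (adjusted p = 1.18e-08) at 36 h. On the log2 scale *Arntl* thus had most of its rise by the first sampled time. It rose again between 12 h and 36 h, by 0.81 ± 0.16 (adjusted p = 0.00247). From 36 h to 48 h no change passed the test, and replicate 2 at 48 h was back within the range of 24 h.

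*Clock* encodes the other activator, a histone acetyltransferase (chromosome 5, 76212177 to 76304548, minus strand, 23 exons). Fresh cells scored 487, 599 and 832, and after 12 h the scores were 1046 and 911, with no overlap. At 24 h it scored 1163, 1127 and 985, by 36 h 1223, 1233 and 1437, and in the last libraries 1419, 1452 and 1403. The rise was gradual, from a log2 change of 0.65 ± 0.17 (adjusted p = 0.00636) at 12 h to 1.19 ± 0.15 (adjusted p = 1.59e-05) at 48 h. The call at 12 h was lost without replicate 1 at 12 h (0.55, adjusted p = 0.0601) and in a fit of the compared times alone (adjusted p = 0.0686), within a range of 0.000148 to 0.0686 over the alternatives.

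**Figure D2:**
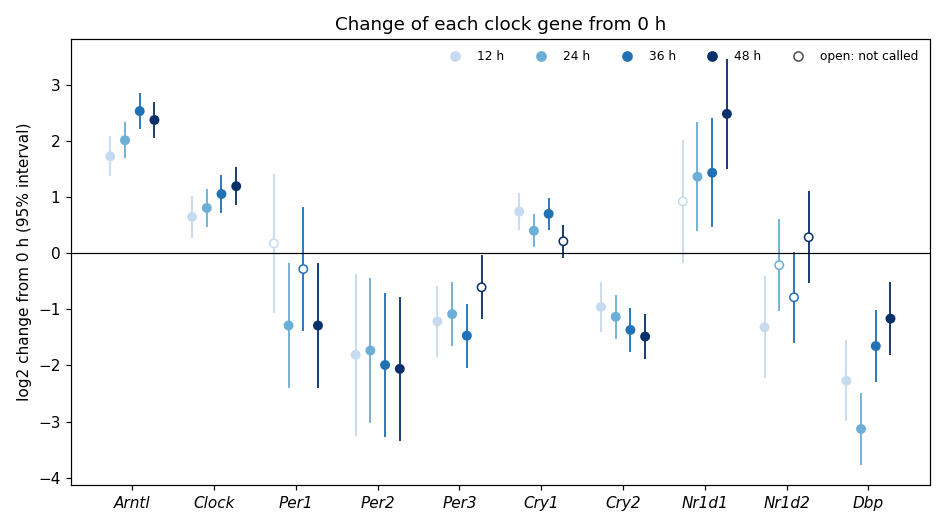
Log2 change of each clock gene from 0 h (vertical axis) at 12, 24, 36 and 48 h (light to dark), with 95% intervals from limma and open circles where the adjusted p missed 0.05. Arntl and Clock lie above 0 and Cry2 and Dbp below 0 at all 4 times, and Per1 and Nr1d2 are called at some times only.

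The *Per* genes encode the inhibitors whose transcripts are the first of the loop to answer signals such as serum, glucocorticoid and cAMP. *Per1* (chromosome 11, 69095217 to 69106458, plus strand, 18 exons) scored 356, 646 and 1383 at 0 h. In culture it went from 1189 and 498 (12 h) to 462, 216 and 217 (24 h), 578, 518 and 587 (36 h) and 531, 186 and 219 (48 h). The libraries at 0 h differed by a larger ratio than those of any culture time, and those at 36 h were the closest together. *Per1* fell by 1.29 on the log2 scale at 24 h (SE 0.51, adjusted p = 0.0398) and by as much at 48 h (adjusted p = 0.0372). Neither call held without replicate 3 at 0 h, which left -0.78 at 24 h (adjusted p = 0.185) and -0.78 at 48 h (adjusted p = 0.177). The call at 24 h was also lost without replicate 2 at 0 h, replicate 2 or 3 at 24 h or replicate 1 at 36 h, and that at 48 h without replicate 2 at 0 h or replicate 2 or 3 at 48 h. Adjusted p ranged from 0.00951 to 0.185 at 24 h and from 0.00737 to 0.177 at 48 h over the alternatives.

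*Per2* (chromosome 1, 91415982 to 91459324, minus strand, 23 exons) scored 80, 222 and 544 at 0 h and 80 and 45 at 12 h. Then came 37, 78 and 88 (24 h), 53, 48 and 58 (36 h) and 27, 81 and 58 (48 h). All cultured libraries lay at or below 88, and replicate 1 at 0 h was the only fresh library in that range. The log2 change was -1.81 ± 0.66 (adjusted p = 0.032) at 12 h, -1.73 ± 0.59 (adjusted p = 0.0202) at 24 h and -2.06 ± 0.59 (adjusted p = 0.00726) at 48 h. At 12 h the call was lost without replicate 2 (-1.78, adjusted p = 0.0673) or replicate 3 (-1.14, adjusted p = 0.115) at 0 h, and without replicate 2 at 12 h (-1.40, adjusted p = 0.19). At 24 h it was lost without replicate 3 at 0 h (-1.06, adjusted p = 0.101) or replicate 1 at 24 h (-1.35, adjusted p = 0.0847). Over the alternatives, adjusted p ran from 0.00254 to 0.19 at 12 h and from 0.0013 to 0.101 at 24 h.

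*Per1*, *Per2* and the immediate early genes *Fos* and *Egr1*, which code for transcription factors, had the same order in the 3 libraries at 0 h. *Per3*, *Cry1*, *Cry2*, *Clock*, *Nr1d1* and *Nr1d2* had it too, and *Arntl* and *Dbp* did not. The order was thus not particular to *Per1*, *Per2* and the immediate early genes. *Fos* scored 16498, 40642 and 127101, the last being the largest value the table holds, and *Egr1* scored 2540, 3904 and 8276. Replicate 1 at 0 h had the lowest of these scores and the highest epithelial marker *Krt14*, at 5832 beside 645 and 838. The size of the fall of *Per1* and *Per2* from 0 h thus depended on which fresh library entered the fit.

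*Per3* (chromosome 4, 151003652 to 151044665, minus strand, 21 exons), the member of the family least needed for the rhythm, was more even. It scored 146, 157 and 196 in fresh cells, 74 and 67 after 12 h, 55, 78 and 107 after 24 h, 69, 52 and 57 after 36 h, and 80, 145 and 108 after 48 h. Libraries at 12, 24 and 36 h did not overlap with those at 0 h, and replicate 2 at 48 h came within 1 unit of the lowest of them. The gene fell by 1.22 (SE 0.29, adjusted p = 0.00322) at 12 h and by 1.47 (adjusted p = 0.000246) at 36 h on the log2 scale, and at 48 h the change of -0.61 ± 0.26 did not pass (adjusted p = 0.0522). That last value lay on both sides of the threshold over the alternatives, from 0.0192 to 0.21.

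*Cry1* and *Cry2* encode the cryptochromes, which bind the CLOCK and BMAL1 pair and hold it inactive, and here they went opposite ways. *Cry1* (chromosome 10, 85131700 to 85185064, minus strand, 13 exons) scored 546, 626 and 701 at 0 h and 981 and 1095 at 12 h. After 24 h the scores were 965, 739 and 768, after 36 h 1035, 1056 and 938, and after 48 h 834, 622 and 715. It was above all fresh libraries at 12, 24 and 36 h and overlapped with them at 48 h. *Cry1* rose by 0.74 ± 0.15 (adjusted p = 0.00101) at 12 h and by 0.70 (adjusted p = 0.000447) at 36 h on the log2 scale. Its smaller rise at 24 h, 0.40 ± 0.13 (adjusted p = 0.0189), was lost without replicate 1 at 0 h (0.30, adjusted p = 0.0792) or replicate 1 at 24 h (0.28, adjusted p = 0.0908), in a range of 0.0108 to 0.0908. At 48 h the change of 0.21 ± 0.13 did not pass (adjusted p = 0.177).

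*Cry2* (chromosome 2, 92403646 to 92434043, minus strand, 12 exons) scored 504, 806 and 953 in fresh cells. In culture the scores were 407 and 344 (12 h), 317, 333 and 345 (24 h), 300, 259 and 288 (36 h) and 260, 254 and 265 (48 h). No cultured library reached a fresh one, and the means went down at each step. The log2 change went from -0.96 ± 0.20 (adjusted p = 0.00134) at 12 h to -1.49 ± 0.18 (adjusted p = 9.03e-06) at 48 h. Its adjusted p stayed below 0.05 at all 4 times under each alternative.

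*Nr1d1* and *Nr1d2* encode the REV-ERB receptors, heme-binding repressors of *Arntl*. *Nr1d1* (chromosome 11, 98767932 to 98775333, minus strand, 8 exons) scored 6, 7 and 9 in fresh cells. Cultured cells had 26 and 8 (12 h), 14, 20 and 29 (24 h), 18, 23 and 23 (36 h) and 30, 43 and 70 (48 h). These are low scores in a table with a median of 721, so each fold change depends on the added pseudocount of 1. All libraries at 48 h were above all at 0 h and above all at 12, 24 and 36 h. The gene rose by 1.36 ± 0.45 (adjusted p = 0.0171) at 24 h and by 2.48 ± 0.45 (adjusted p = 0.000276) at 48 h on the log2 scale. The call at 24 h was lost without replicate 3 at that time (1.11, adjusted p = 0.07), within a range of 0.00751 to 0.07.

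*Nr1d2* (chromosome 14, 18204054 to 18239127, minus strand, 8 exons) behaved unlike *Nr1d1*. Fresh cells had 502, 843 and 960. After 12 h the scores were 264 and 332, after 24 h 353, 765 and 961, after 36 h 403, 423 and 462, and after 48 h 528, 1195 and 1157. The libraries at 12 h and at 36 h lay below all at 0 h, while those at 24 h and 48 h overlapped with 0 h. *Nr1d2* fell by 1.32 on the log2 scale at 12 h (SE 0.42, adjusted p = 0.0165), and at 24, 36 and 48 h its change from 0 h did not pass. At 36 h the change of -0.79 (adjusted p = 0.0781) passed under 6 alternatives, among them the fit of all times with the replicate block (0.00617) and those without replicate 1 at 0 h (-1.07, 0.0314), at 24 h (0.0345) or at 48 h (0.0451), in a range of 0.00614 to 0.223. At 48 h it passed in 1 alternative, without replicate 1 at 24 h and 48 h together (0.67, adjusted p = 0.0264), in a range up to 0.998. The call at 12 h was lost without replicate 3 at 0 h (-1.13, adjusted p = 0.0532) or replicate 1 at 12 h (-1.16, adjusted p = 0.101), in a range of 0.000668 to 0.101.

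*Dbp* encodes a PAR bZIP activator and is one of the most strongly rhythmic transcripts of many tissues. On chromosome 7 (45705088 to 45710203, plus strand, 4 exons), it scored 133, 115 and 133 in fresh cells, 23 and 28 after 12 h, 13, 12 and 16 after 24 h, 38, 60 and 27 after 36 h, and 75, 54 and 43 after 48 h. The gene was lowest at 24 h, where all 3 libraries were below all others, and it stayed below 0 h throughout. The log2 change of *Dbp* from 0 h was -2.28 ± 0.33 at 12 h (adjusted p = 7.75e-05) and -3.13 ± 0.30 at 24 h (adjusted p = 1.13e-06). At 48 h it was -1.17 ± 0.30 (adjusted p = 0.00336). At all 4 times its adjusted p stayed below 0.05 under each alternative in which *Dbp* was tested.

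The step from 24 h to 36 h changed 2 of the 10 genes, where 19.7% of all transcripts changed. *Dbp* rose by 1.48 ± 0.30 (adjusted p = 0.00597) and *Arntl* by 0.52 ± 0.15 (adjusted p = 0.0277) on the log2 scale, so both rose together. With the replicate numbers as a block in the fit of all times, both stayed called (*Dbp* 0.00853 and *Arntl* 0.0318, adjusted p). In a fit of these 2 times alone, *Per1* was called as well without the block (1.004, adjusted p = 0.0473, in a range of 0.0473 to 0.4), beside 27.7% of all transcripts, and with it 1 gene was called, beside 18.7% of all transcripts. *Arntl* then had an adjusted p of 0.0213 and *Dbp* one of 0.0548, the highest of its range from 0.0043. The call of *Arntl* was lost when any one of the 6 libraries at 24 h and 36 h was left out, with changes of 0.46 to 0.55 and adjusted p from 0.0514 to 0.0888, within 0.00687 to 0.0888 over all alternatives. Without replicate 1 at 24 h, *Cry1* was called (0.42, adjusted p = 0.0464, in a range of 0.0267 to 0.347) beside 20.9% of all transcripts. Without replicate 1 at 24 h and 48 h together, *Cry1* (adjusted p = 0.0267) and *Nr1d2* (-0.9985, adjusted p = 0.0123, in a range of 0.0123 to 0.699) joined *Dbp* and *Arntl*, beside 24.5%.

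No gene of the 10 changed from 12 h to 24 h (limma, 4 at an unadjusted p below 0.05), where 8.25% of all transcripts did. Without replicate 1 at 24 h, *Nr1d2* was called there (1.53, adjusted p = 0.0279) beside 8.63% of all transcripts, and over the alternatives its adjusted p was between 0.00592 and 0.481. From 36 h to 48 h there was again none (4 at an unadjusted p below 0.05), and 0.0248% of all transcripts were called. Across the 4 culture times together, a test of any change called 4 of the 10, *Dbp* (adjusted p = 0.0012), *Arntl* (adjusted p = 0.00592), *Cry1* (adjusted p = 0.0228) and *Nr1d2* (adjusted p = 0.0305), beside 41.9% of all transcripts. This number fell to 2 without replicate 2 at 12 h, replicate 1 or 2 at 36 h, or replicate 2 or 3 at 48 h, beside 34.0% to 39.2% of all transcripts.

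Points 24 h apart should have like levels if a daily rhythm on an even level were the only source of change. From 12 h to 36 h, 1 of the 10 genes changed, *Arntl*, where 38.4% of all transcripts did. Without replicate 1 at 0 h the number was 3, with *Clock* and *Cry2* added, beside 40.1% of all transcripts, and without replicate 3 at 0 h it was 2, with *Clock* added, beside 41.6%. From 24 h to 48 h it was *Dbp*, which rose by 1.96 ± 0.30 (adjusted p = 0.000696), beside 23.8% of all transcripts. Thus *Dbp* at 48 h was well above *Dbp* at 24 h, with scores of 75, 54 and 43 against 13, 12 and 16. *Per1* had a change of -0.00036 ± 0.51 between the same times, with a wide interval. With the replicate numbers as a block in the fit of all times, *Dbp* alone was called, and *Clock* (adjusted p = 0.0942), *Nr1d1* (0.0785) and *Nr1d2* (0.112) were not. With the block in a fit of the 2 times only, 4 genes and 25.8% of all transcripts were called, and *Clock* (0.39, adjusted p = 0.0246), *Nr1d1* (1.12, adjusted p = 0.0219) and *Nr1d2* (0.50, adjusted p = 0.0281) joined *Dbp* (adjusted p = 0.0149). In the fit of all times without the block, the number was 3 without replicate 1 at 0 h (*Clock* and *Cry2* added, 25.4% of all transcripts), 2 without replicate 3 at 0 h (*Clock* added, 26.6%) and 2 without replicate 2 at 48 h (*Arntl* added, 18.9%). The adjusted p ranged over the alternatives from 0.0176 to 0.237 for *Clock*, from 0.0219 to 0.272 for *Nr1d1* and from 0.0281 to 0.91 for *Nr1d2*.

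Alternation was measured as 1 value per gene, the swing that reverses at every step from 12 h to 48 h after a straight or evenly bent drift is taken out. For an even swing the value is the distance to each side of that drift, not the full difference between high and low times. A positive swing means that 12 h and 36 h lay above, and 24 h and 48 h below, such a drift, so a gene that rises with time can have one without higher levels at 12 h and 36 h. None of the 10 genes passed the test over all transcripts, and 4 had an unadjusted p below 0.05 (limma). Of all 12079 transcripts, 3 passed, or 0.0248%, namely *Thbs1* (0.32, adjusted p = 0.00959), which encodes a matrix glycoprotein, *Bnip3l* (0.44, adjusted p = 0.0335), which encodes a mitophagy receptor, and *Pygl* (0.63, adjusted p = 0.0335), which encodes liver glycogen phosphorylase. Each of these swings was positive, and none is a clock gene of the lists used here. The number of transcripts called was not stable. It was 0 with the replicate block and 0 in a fit of the culture times alone, and 587 without replicate 1 at 24 h.

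Among the clock genes, *Per1* had the largest swing, 0.56 ± 0.20 on the log2 scale (adjusted p = 0.183). *Dbp* followed with 0.42 ± 0.12 (adjusted p = 0.125) and *Cry1* with 0.18 ± 0.05 (adjusted p = 0.131), both also positive. *Nr1d2* swung the other way, by -0.41 ± 0.15 (adjusted p = 0.181), and *Per3* by -0.22 ± 0.10 (adjusted p = 0.287). The intervals at 95% confidence ran from 0.12 to 1.002 for *Per1*, from 0.16 to 0.67 for *Dbp*, from 0.06 to 0.30 for *Cry1* and from -0.74 to -0.09 for *Nr1d2*. These 4 are the genes with an unadjusted p below 0.05, and an adjusted p above the threshold does not show that they had no swing. For *Arntl* the swing was 0.11 ± 0.06, with an interval from -0.01 to 0.24, and for *Clock* it was 0.03 ± 0.06, from -0.11 to 0.16. *Cry2* had an interval from -0.18 to 0.14, *Per2* one from -0.58 to 0.45 and *Nr1d1* one from -0.56 to 0.22. Swings of the size of *Per1* or *Nr1d2* thus lie outside the intervals of *Arntl*, *Clock* and *Cry2*, though the differences between genes were not tested. *Dbp*, as its scores show, was low at both 12 h and 24 h and higher at 36 h and 48 h, so its positive swing came with no fall from 36 h to 48 h in the means.

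**Figure D3:**
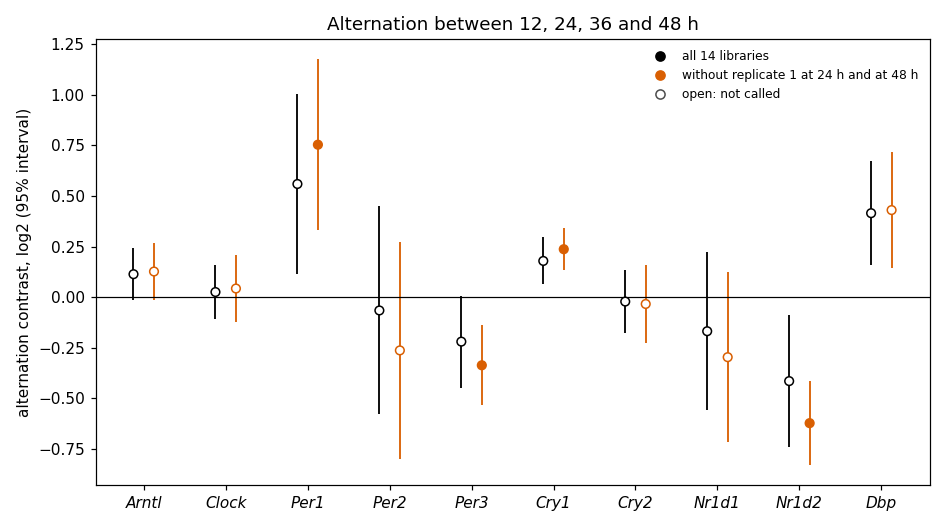
Swing of each clock gene to each side of its drift over 12, 24, 36 and 48 h (vertical axis, log2), with 95% intervals from limma. Values are above 0 where 12 and 36 h lie above the drift with time. Points show all 14 libraries (black) and those without replicate 1 at 24 h and at 48 h (orange), filled where the adjusted p was below 0.05. No black point is filled, and the orange points of Per1, Per3, Cry1 and Nr1d2 are, in a fit where 11.9% of all transcripts passed.

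Replicate 1 at 24 h and replicate 1 at 48 h differed from the other libraries of their time in the same genes. On the log2 scale, *Per1* was higher than the mean of the others by 1.09 at 24 h and 1.39 at 48 h, and *Cry1* by 0.36 and 0.32. *Per2* was lower, at -1.14 and -1.31, as were *Per3* at -0.72 and -0.64, *Nr1d1* at -0.74 and -0.85 and *Nr1d2* at -1.28 and -1.15. *Cry2*, *Arntl*, *Clock* and *Dbp* had no such shared direction. A shared direction was common, since 6 of 10 clock genes and 58.9% of all transcripts had one. A difference over 2-fold in both libraries was held by 3 of the 10, *Per1*, *Per2* and *Nr1d2*, and by 117 of 12079 transcripts, or 0.969%. Over the whole table, replicate 1 differed most from the others at 48 h, while replicates 1 and 3 differed about as much at 24 h. The root mean square log2 difference of replicate 1 from the others of its time was 0.422 at 24 h, beside 0.297 and 0.402 for replicates 2 and 3, and 0.416 at 48 h, beside 0.327 and 0.347. At 48 h, 340 transcripts of replicate 1 differed over 2-fold from the others, against 174 and 203, and at 24 h there were 374, against 135 and 376.

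Some other genes had the same unevenness, and they were picked after their values were seen. *Tsc22d3*, a glucocorticoid target also called *Gilz*, scored 1738 and 2226 (12 h), 1566, 743 and 769 (24 h), 2200, 2184 and 2262 (36 h) and 1513, 645 and 568 (48 h), with a swing of 0.61 ± 0.13 (adjusted p = 0.0996). *Rora*, which encodes the activator that competes with the REV-ERB receptors, scored 1257 and 1033 (12 h), 1418, 755 and 761 (24 h), 1387, 1430 and 1433 (36 h) and 1223, 740 and 951 (48 h), with a swing of 0.26 ± 0.12 (adjusted p = 0.262). Both its libraries at 12 h were below those of 36 h and below replicate 1 at 24 h. In each gene, replicate 1 at 24 h and 48 h lay between the other libraries of its time and the level of 36 h, or near that level.

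**Figure D4:**
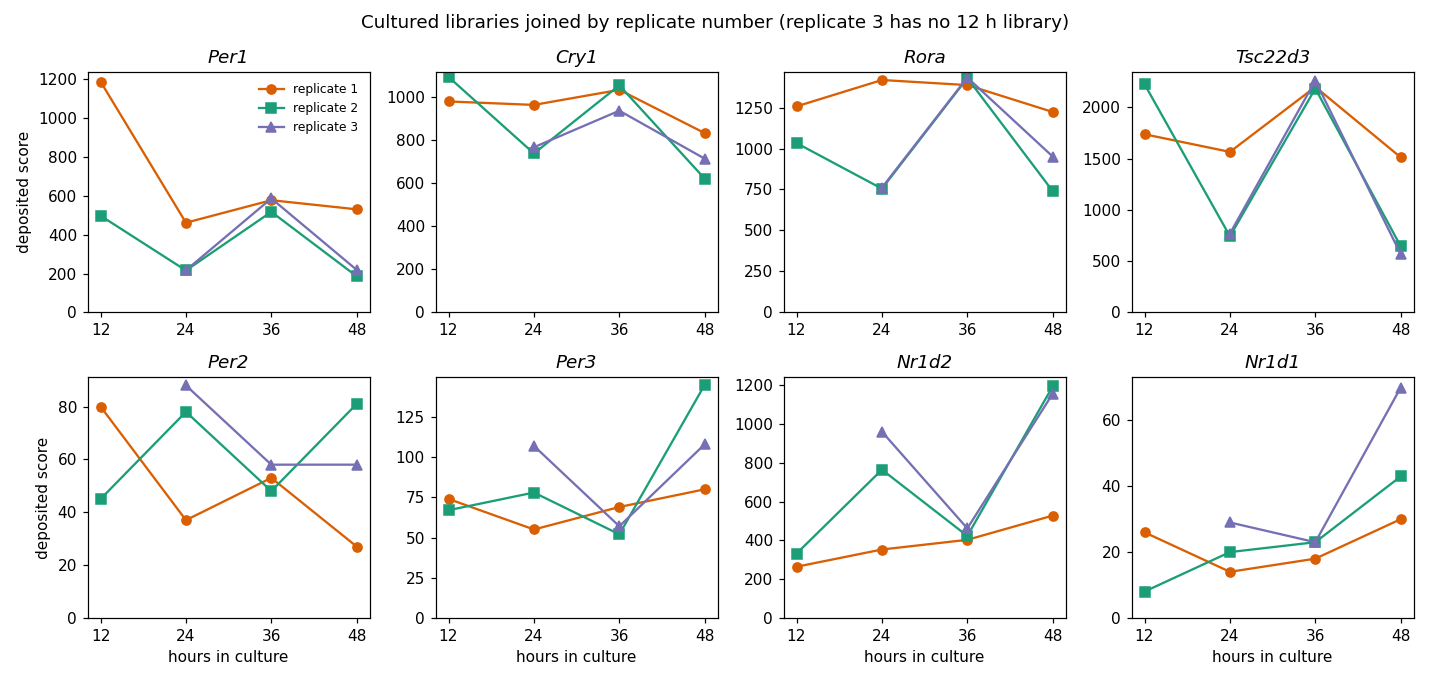
Scores (vertical axis, linear) of Per1, Cry1, Rora, Tsc22d3, Per2, Per3, Nr1d2 and Nr1d1 against hours in culture, joined by replicate number, which is only a label. Replicate 1 (orange) stays apart from the others at 24 h and 48 h, above them for the upper 4 genes and below them for the lower 4, and the replicates lie closer together at 36 h.

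Without these 2 libraries, alternation was called for 4 of the 10 genes, *Per1* (0.75, adjusted p = 0.0303), *Cry1* (0.24, adjusted p = 0.0115), *Nr1d2* (-0.62, adjusted p = 0.00348) and *Per3* (-0.34, adjusted p = 0.0357). The number over all transcripts rose as well, from 3 to 1443, or 11.9%. Because the libraries were left out after the values of these genes had been seen, the 4 calls are a description and no evidence of a rhythm. Without replicate 1 at 24 h alone, *Cry1* (0.22, adjusted p = 0.0378) and *Nr1d2* (-0.57, adjusted p = 0.0344) were called beside 4.86% of all transcripts, and without replicate 1 at 48 h alone 0 genes were, beside 4.64%. Over all alternatives the adjusted p of the swing ranged from 0.0303 to 0.448 for *Per1*, from 0.0115 to 0.375 for *Cry1*, from 0.00348 to 0.479 for *Nr1d2*, from 0.0357 to 0.653 for *Per3* and from 0.0521 to 0.643 for *Dbp*.

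By replicate number, of which 1 and 2 have all 4 culture times, the swings were 0.27 and 0.65 for *Per1* and 0.07 and 0.30 for *Cry1*. *Nr1d2* had swings of -0.05 and -0.55, and *Dbp* of 0.35 and 0.72. *Per2* went opposite ways, with 0.38 in replicate 1 and -0.36 in replicate 2, and so did *Per3*, with 0.11 and -0.35. These series are joined by a label of unknown meaning, and the first step of *Cry1* in replicate 1 was from 981 to 965 only.

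Promoter sequences are shown for 3 genes whose windows hold a clock motif. RefSeq windows of GRCm38.p6, each of 300 bases around a gene start, were found for 9 of the 10 genes (13 windows), with *Per2* the gene without one. Each was searched on both strands for the E-box CACGTG (in 7.15% of 32851 promoters), the D-box TTATGTAA (0.938%), the ROR element core AGGTCA (16.3%) and the cAMP response element TGACGTCA (1.79%). E-boxes were found in *Per1* and *Cry1*, D-boxes in *Per3*, a ROR core in *Per1*, *Arntl*, *Clock* and *Nr1d2* and no cAMP response element in any. *Per1*, *Arntl* and *Clock* have several windows, some of which hold none of the motifs. The stretches below are written 5′ to 3′ on the strand of the gene and hold no annotated exon, and capitals mark the motifs. That of *Per1* (chr11:69098699-69098938, plus strand) lies inside the annotated *Per1* gene but in no exon. It has an E-box that begins 166 bases and a ROR core on the opposite strand that begins 137 bases before the RefSeq start. The measured *Per1* transcript starts upstream of this stretch, at 69095217. That of *Cry1* (chr10:85185065-85185304, minus strand) has an E-box 60 bases before the start. That of *Per3* (chr4:151044676-151044915, minus strand) has D-boxes 205 and 158 bases before the start and lies within the gene *Camta1*, in no exon.
Per1: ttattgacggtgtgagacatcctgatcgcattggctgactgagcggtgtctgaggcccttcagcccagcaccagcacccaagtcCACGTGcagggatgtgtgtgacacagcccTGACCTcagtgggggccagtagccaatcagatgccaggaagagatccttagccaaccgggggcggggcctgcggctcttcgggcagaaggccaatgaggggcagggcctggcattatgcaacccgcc
Cry1: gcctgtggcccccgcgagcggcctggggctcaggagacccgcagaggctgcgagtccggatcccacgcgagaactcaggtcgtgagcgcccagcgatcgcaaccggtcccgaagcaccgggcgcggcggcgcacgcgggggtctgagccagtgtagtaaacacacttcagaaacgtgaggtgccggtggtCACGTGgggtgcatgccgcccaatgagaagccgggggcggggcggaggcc
Per3: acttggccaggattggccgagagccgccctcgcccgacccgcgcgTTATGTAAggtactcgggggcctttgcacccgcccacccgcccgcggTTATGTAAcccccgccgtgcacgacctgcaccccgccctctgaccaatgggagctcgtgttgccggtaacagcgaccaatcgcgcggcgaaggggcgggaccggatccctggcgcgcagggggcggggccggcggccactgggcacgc
A match is only a description of the letters, and binding was not measured here.

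In the tissue library, 5 of the 10 genes lay within the range of the freshly isolated cells and 5 outside it, where 61.7% of all transcripts lay outside. *Per3* (123 against 146 to 196), *Arntl* (144 against 165 to 226) and *Dbp* (65 against 115 to 133) were below the range. *Cry1* (842 against 546 to 701) and *Nr1d1* (12 against 6 to 9) were above it. *Arntl* in the tissue was thus far from its level in culture, which was at least 639 in every library, and *Dbp* in the tissue was within the scores of 48 h. With 1 library these differences have no replicate check, and without replicate 3 at 0 h, 9 of the 10 genes and 78.5% of all transcripts lay outside the range.

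Other clock genes, of which 8 of 13 have rows, were 1 up and 4 down at 48 h against 0 h. Beside this and the list counts that follow stand the 37.1% of all transcripts that were higher and the 34.0% that were lower at 48 h. *Bhlhe41*, a repressor at E-boxes, rose by 2.96 (adjusted p = 1.24e-07), from 18, 14 and 21 to 166, 141 and 123. *Tef*, a relative of *Dbp*, fell by 0.83 (adjusted p = 0.000872) after a deeper fall of 2.52 at 12 h (adjusted p = 3.54e-07), and it also rose from 24 h to 48 h, by 0.74 (adjusted p = 0.00927). *Timeless* and *Tipin*, partners in the replication fork, fell by 1.36 and 1.13, and *Rora* fell by 0.70 (adjusted p = 0.0446). Thus both PAR bZIP genes fell early and were partly back at 48 h.

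Of the kinases, ligases and cofactors of clock proteins, 19 of 20 had rows, and 3 rose and 13 fell at 48 h. *Usp2*, a deubiquitinase of clock proteins, fell by 2.75, *Sfpq* and *Nono*, RNA-binding partners of PER, by 1.53 and 1.22, the PER ligase gene *Btrc* by 0.84 and the acetyltransferase gene *Crebbp* by 0.83. Among 16 of 20 output genes with rows, 10 rose and 2 fell. The rises included *Cdkn1a*, a cell cycle inhibitor gene, at 6.70, *Tfrc*, the transferrin receptor gene, at 3.43, *Tspo* at 2.52 and *Nqo1* at 2.27. The output list had a median change of 1.02, against 0.03 over all transcripts, which the shared distribution of the scores keeps small. Several genes of the output list also answer damage or iron.

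Of the serum immediate early genes, 22 of 23 had rows, and 2 rose, 13 fell and 7 did not pass at 48 h. The log2 change was -5.61 for *Fos*, -4.62 for *Fosb*, -2.80 for *Egr1* and -2.09 for *Atf3*, all falls, and 5.001 for *Fosl1*, a rise. Glucocorticoid and cAMP responsive genes, 9 of 10 with rows, were 3 up and 3 down, among them *Klf9* up by 1.11, *Sgk1* up by 0.80, the glucocorticoid receptor gene *Nr3c1* up by 0.68, *Sik1* down by 1.62 and *Fkbp5* down by 1.39. All 17 proliferation genes had rows, and 0 rose and 14 fell at 48 h, with *Mki67* at -2.05, *Ccnb2* at -1.70, *Top2a* at -1.59, *Mcm6* at -1.41 and *Mcm4* at -1.36. No gene of these 6 lists was called for alternation, as for the 10 clock genes. With 0.0248% of all transcripts called, lists of this size would rarely hold such a gene, so this says little of them.

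Across the 11 cultured libraries, which share the time course, the transcripts most like *Dbp* by Pearson correlation of log2 values were *Ptpdc1* (r = 0.953), *Stk38* (0.947) and *Nbr1* (0.947). The least like were *Lrrc8b* (-0.942), *Plk4* (-0.942) and *Suv39h1* (-0.935). For *Arntl* the closest were *Tgfbr3* (0.975), *Lzic* (0.956) and *Frmd6* (0.947), and the most opposite were *Golim4* (-0.958), *Zbtb8a* (-0.954) and *S100a14* (-0.95). None of the other 9 clock genes was among the 3 nearest or the 3 farthest of either gene.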

How the data were processed

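RNA-seq scores of 15 libraries were used, with groups and replicate numbers from the sample labels. The authors trimmed adaptors, aligned the reads to the mouse transcriptome (mm10, Ensembl) with bowtie, estimated expression with RSEM (the submitters' processing notes and the study's methods name different versions) and used DESeq2 for their own tests. The authors deposited 1 table of scores, whole numbers that are no read counts: totals lie between 21357605 and 21365980, the largest value is 127101 in every library, and how they were normalised is not given in the sources used here. No interval from counting error can thus be given. Of 12089 transcripts, 11973 matched a gene of GRCm38 (mm10), and 0 columns were left unmapped.

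Values were analysed as log2(score + 1), a scale that understates changes of low genes. One limma model (version 3.58.1, in R 4.3.3) took the 14 libraries of mDMCs, gave each time point its own mean and moderated the variances along an intensity trend. A transcript entered when it reached 1 ppm of a library's total in 2 or more libraries, which 12079 did. Tests were two-sided, p-values were adjusted over all 12079 by Benjamini-Hochberg, and a call needed an adjusted p below 0.05. The fit was tested on simulated data. Alternation was (D0.5 - 3 D1 + 3 D1.5 - D2)/8. The tissue, with 1 library, was not tested. Tables used Python 3.11.15 with numpy 2.4.6 and pandas 2.3.3, and plots matplotlib 3.10.9.

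The genes, the lists and the tests were chosen with earlier results of these data known. All 10 clock genes are named, and of each list up to 5 called genes with the largest change from 0 h to 48 h. The value of 1 such output gene is not reported here. Deviations of same-numbered libraries from their time point means were correlated above 0.1 in all 3 pairs for 24 h with 36 h (0.165, 0.142 and 0.127) and 24 h with 48 h (0.304, 0.201 and 0.318) and for no other pair of times with 3 such pairs. The labels do not say what a shared number means, and the blocked values stand beside the results of those comparisons that they changed. Alternatives were other pseudocounts, filters and scalings, fits of fewer time points, the block, a p and fold threshold, another form of alternation and each library left out, and 2 alternatives were added after the data were seen.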

Additional observations from a re-analysis of the deposited data

How the results depend on the processing

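The rises of *Arntl* and *Clock* and the falls of *Cry2* and *Dbp* at 24, 36 and 48 h against 0 h kept their direction and an adjusted p below 0.05 under every alternative that tested them. With an unadjusted p below 0.05 and a fold above 2 in place of the adjusted p, the number of clock genes called was 5 for 0–12 h (24.3% of all transcripts), 2 for 12–24 h (3.68%), 1 for 24–36 h (4.17%), 2 for 36–48 h (1.36%), 0 for 12–36 h (11.6%) and 2 for 24–48 h (5.05%). The strict filter, which leaves *Dbp* and *Nr1d1* untested, gave 1 for 24–36 h (19.8%) and 0 for 24–48 h (23.8%), and a fit of the compared times alone gave 3 for 12–36 h (39.8%) and 3 for 24–48 h (20.1%). Without replicate 1 at 24 h and 48 h together, the numbers were 2 for 12–24 h (*Cry1* and *Nr1d2*, 10.3%), 4 for 24–36 h (24.5%), 3 for 36–48 h (*Per3*, *Cry1* and *Nr1d2*, 4.40%) and 4 for alternation (11.9%), and *Nr1d2* for 0–24 h (0.21), *Nr1d1* for 24–36 h (-0.18) and *Per2* for 36–48 h (0.37) turned direction. A plain comparison of 12 and 36 h against 24 and 48 h, taken as (D0.5 - D1 + D1.5 - D2)/4, lets drift in. By it alternation was called for 2 genes (6.95%, against 0.0248% with drift removed), and *Cry2* (0.073), *Arntl* (-0.0323) and *Clock* (-0.074) turned. *Per1* for 24–48 h turned to 0.0013 with a pseudocount of 10 and to 0.0035 with trimmed mean scaling.

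With the replicate block in the full fit, 1 gene was called for 12–24 h (8.73% of all transcripts), *Nr1d2* (0.93, adjusted p = 0.0397), *Per2* turned there (-0.19), and *Per3* at 48 h and *Nr1d2* at 36 h against 0 h passed the threshold. With the block in fits of 2 times, 1 gene was called for 24–36 h and 4 for 24–48 h. Over all 26 pairs of libraries with one number, deviations correlated between -0.25 and 0.318.

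Leaving out 1 library at a time gave 6 to 8 genes called for 0–12 h, 7 to 9 for 0–24 h, 8 to 9 for 0–36 h, 6 to 8 for 0–48 h, 0 to 1 for 12–24 h, 1 to 2 for 24–36 h, 0 for 36–48 h, 1 to 3 for 12–36 h, 1 to 3 for 24–48 h, 0 to 2 for alternation, 2 to 6 for any change in culture, and 5 to 9 in the tissue outside the 0 h range. Directions that turned in this way were those of *Per1* for 0–12 h (-0.45 to 0.80) and 0–36 h (-0.75 to 0.22), *Nr1d2* for 0–24 h (-0.51 to 0.21), *Per2* (-0.33 to 0.49), *Per3* (-0.10 to 0.37) and *Nr1d1* (-0.35 to 1.23) for 12–24 h, *Nr1d1* for 24–36 h (-0.18 to 0.32), *Per2* (-0.41 to 0.37) and *Arntl* (-0.27 to 0.0211) for 36–48 h, *Per1* (-1.08 to 0.17), *Per2* (-0.59 to 0.23), *Cry1* (-0.12 to 0.0396) and *Nr1d1* (-0.28 to 1.303) for 12–36 h, *Per1* (-0.46 to 0.36) and *Per2* (-0.71 to 0.11) for 24–48 h, and the swings of *Per2* (-0.21 to 0.0217), *Cry2* (-0.0387 to 0.000899) and *Clock* (-0.0031 to 0.043). None of these was called with all libraries. The cause of these shifts was not tested, and the unknown read depth limits what can be said of *Nr1d1* and *Dbp*.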
